A study of Mus musculus with 8 samples.

Results

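The integrated stress response targets described here are 6 mouse genes, Ddit3, Atf3, Trib3, Chac1, Asns and Sesn2, chosen by symbol as well-known downstream genes of the pathway. All 6 were found, each as 1 of the 10987 transcripts measured. Ribosome footprints, the pieces of mRNA that ribosomes shield from nuclease, and RNA were sequenced from 2 cultures of oligodendrocyte progenitor cells (OPCs) and 2 cultures of oligodendrocytes, which gave 8 libraries. The OPCs were made in vitro from epiblast stem cells of male 129S/SvEv mouse embryos and grown with bFGF and PDGFA. For oligodendrocytes, such OPCs first went through 2 passages without bFGF. They were then differentiated in medium with T3, noggin, IGF-1, cyclic AMP and NT3. Cells were frozen after 3 days. All groups therefore share 1 in vitro model, each culture pooled several dishes, and the labels name no agent given to induce stress. The comparison asks how RNA, footprints and their ratio differ between the stages.

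In the integrated stress response, kinases that sense amino acid shortage, misfolded protein in the endoplasmic reticulum (ER), double-stranded RNA or heme shortage phosphorylate the initiation factor eIF2. Bulk initiation then falls, while messages with suitable upstream open reading frames, above all that of the transcription factor ATF4, are translated better, and ATF4 switches on the genes described here. In the oligodendrocyte lineage this pathway is known from vanishing white matter disease, caused by mutations of the eIF2B subunits, and from myelin disorders with ER stress.

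ATF4 and its partners bind C/EBP-ATF response elements. Their core TGATGNAA was searched on both strands of the RefSeq promoter windows (GRCm38.p6, from 250 bases before to 50 bases after each start). It was found in the windows of 4 of the 6 genes, Atf3, Trib3, Chac1 and Asns, and in 1304 of all 32851 windows (3.97%). The windows of Ddit3 and Sesn2 did not hold these letters. The 4 matches are shown because these letters are the textbook link between ATF4 and its targets. Each is written 5′ to 3′ on the strand of the gene, with the match in capitals.

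Atf3, chr1:191183425-191183454, minus strand, match 110 bases before the start: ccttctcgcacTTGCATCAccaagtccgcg
Trib3, chr2:152344028-152344057, minus strand, match downstream of the RefSeq start: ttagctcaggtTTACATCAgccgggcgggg
Chac1, chr2:119351038-119351067, plus strand, match 193 bases before the start: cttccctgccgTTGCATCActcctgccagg
Asns, chr6:7693214-7693243, minus strand, match 23 bases before the start: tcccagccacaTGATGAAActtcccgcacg

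In Atf3, Trib3 and Chac1 the core reads on the opposite strand, and in Asns on the strand of the gene. Positions depend on the gene model: in Gencode, Asns starts further upstream than in RefSeq, so its match lies inside the first exon, and Trib3 starts further downstream, so its match lies before the start. A match is a description of the letters only.

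Values are FPKM, fragments scaled to the length of a feature and to the mapped reads of a library. The feature is the full transcript for RNA-seq and the coding sequence (CDS) for footprints. Ribosome density (RD) is footprint FPKM divided by RNA FPKM of the same lysate. The estimated depth was between 207 and 249 Mb of aligned bases in the OPC footprint libraries, and 214 and 93.0 Mb in those of oligodendrocytes. It was 241 and 166 Mb in OPC RNA-seq and 120 and 77.9 Mb in oligodendrocyte RNA-seq, each within a possible factor of 2. Footprints of oligodendrocyte replicate 2, the shallowest footprint library, listed 31.1% of transcripts at 0, against between 14.7% and 20.5% in the other footprint libraries. All 5 oligodendrocyte markers measured were higher in oligodendrocytes in RNA, as Cnp with 27.1 and 28.0 FPKM in OPCs, against 1325 and 1118 FPKM in oligodendrocytes. Of the genes listed as OPC markers, 2 of 4 (Pdgfra and Sox10) were also higher in oligodendrocytes, and none was lower. Whether these genes are particular to OPCs was not tested. Cspg4, which the paper used as an OPC marker, was not among the 10987 transcripts, so these counts do not cover it. Astrocyte markers moved too: 3 of 4 were higher in RNA and 2 of 4 in footprints, and their summed RNA level was between 23.6 and 34.9 FPKM in OPCs and between 673 and 742 FPKM in oligodendrocytes, mostly S100b. Gfap, the defining astrocyte marker, had 0.155 and 0 FPKM in OPCs, against 14.2 and 2.11 FPKM in oligodendrocytes. The summed neuron markers were between 111 and 124 FPKM in OPCs and between 161 and 172 FPKM in oligodendrocytes, and the 1 microglia marker measured did not exceed 0.0674 FPKM. The part of other cells in the results was not tested, and in bulk samples fewer cells of a type and less RNA per cell cannot be told apart.

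Ddit3 was the 1 gene of the 6 that passed the test in RNA and in footprints, and it was higher in oligodendrocytes in both. It encodes CHOP, the transcription factor linked to cell death after lasting ER stress. Its RNA rose 1.83-fold and its footprints 7.47-fold between the group means. None of the other 5 passed where it was tested. Trib3 was not tested in RNA, and Atf3 was not tested in footprints. In RNA-seq, 1 of the 5 genes tested passed, while 33.2% of all 8346 transcripts tested did (13.0% higher and 20.2% lower in oligodendrocytes). In footprints it was 1 of 5, while 23.6% of 8342 transcripts passed (12.8% higher and 10.8% lower). In RD none of 4 genes passed, and 1 of 8056 transcripts did, or 0.0124%. With an unadjusted p under 0.05, RD of 387 of 8056 transcripts (4.80%) passed the limma test, Ddit3 among them. This share is no larger than the threshold of 0.05 gives without any change. The median log2 fold change of the 5 genes tested was -0.43 in RNA, against -0.23 for all transcripts tested, and -0.29 in footprints, against -0.16. Exact permutations of 2 against 2 cultures cannot give a p below 0.333, so the tests rest on limma, which shares the spread across transcripts, and measure only the spread between these cultures.

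**Figure D1:**
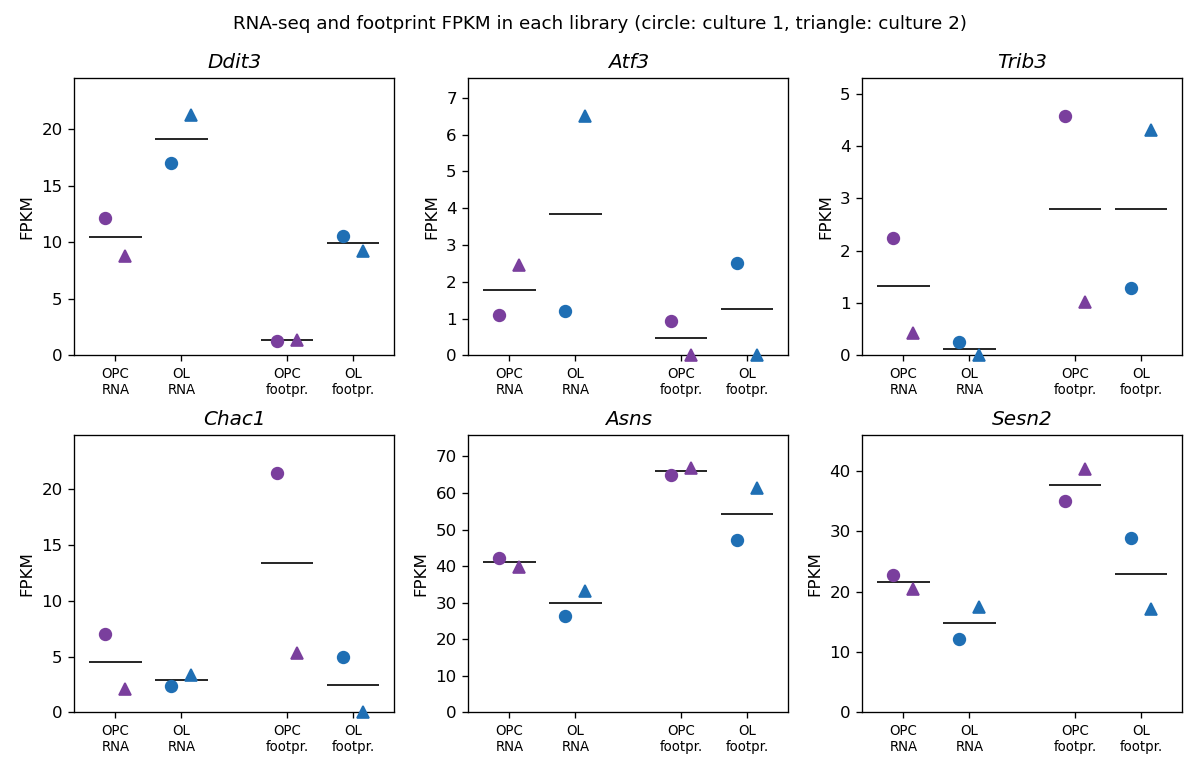
FPKM (linear axes from 0) of the 6 genes in each library, RNA-seq on the left and footprints on the right of each panel; circles are culture 1, triangles culture 2, and bars the mean of 2. The 4 Ddit3 values of oligodendrocytes lie above those of OPCs in both kinds of library, and those of Asns and Sesn2 lie below. The cultures of Atf3, Trib3 and Chac1 lie far apart within a group.

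Ddit3 (ENSMUST00000026475) lies at chr10:127290774-127296288 on the plus strand of GRCm38, with 4 exons, a transcript of 890 bases and a CDS of 168 codons. In replicates 1 and 2 of each group, its RNA level was 12.1 and 8.79 FPKM for OPCs, against 17.0 and 21.3 FPKM for oligodendrocytes. Values below are given in the same order. Its footprints were 1.31 and 1.34 FPKM in OPCs, against 10.6 and 9.27 FPKM in oligodendrocytes. The groups did not overlap in either measure, and neither did those of Asns and Sesn2, which were lower in oligodendrocytes. Full separation of 2 against 2 cultures has an exact permutation p of 0.333, and the share of all transcripts that separate was not computed. In RNA the means of Ddit3 were 10.5 ± 2.38 and 19.2 ± 2.98 FPKM (SD, n = 2 each). In footprints, where the fold was larger, they were 1.33 ± 0.0208 and 9.92 ± 0.916 FPKM (SD, n = 2 each).

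Ddit3 had a log2 fold change of 0.88 in RNA (SE 0.26, 95% interval 0.24 to 1.51, limma adjusted p = 0.0483). This call was close to the threshold, and the adjusted p lay between 0.0341 and 0.236 over 11 alternatives, 7 of which lost it. In footprints the log2 fold change was 2.81 (SE 0.52, 95% interval 1.37 to 4.24, limma adjusted p = 0.0311). Same-numbered cultures are pairs by origin, and with the replicate block the adjusted p in footprints was 0.0780, so the call was lost. It was also lost without OPC replicate 1 (limma adjusted p = 0.196) and without OPC replicate 2 (0.203), where the remaining OPC library is assumed to vary like the others. The direction was the same in each of these fits, and the footprint ratio was 8.04 in pair 1 and 6.90 in pair 2.

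RD of Ddit3 was 0.108 and 0.153 in OPCs and 0.620 and 0.436 in oligodendrocytes. All 4 values were low. Ddit3 was ranked in each culture among the 8056 transcripts tested in RD, less those listed at 0 in either kind of library. In OPC replicates 1 and 2, 14 of 7915 and 18 of 7824 of these had a lower RD. In oligodendrocytes 428 of 7964 and 470 of 7043 had. Transcripts listed at 0 in footprints alone have an RD of 0, below that of Ddit3, and these counts leave them out. RD of Ddit3 was 5.73-fold higher in the oligodendrocytes of pair 1 and 2.85-fold higher in pair 2. The median RD of the ranked transcripts was 1.72 and 1.77 in OPCs and 2.02 and 1.95 in oligodendrocytes. The log2 change of RD was 1.93 (SE 0.46, 95% interval 0.82 to 3.04), with a limma p of 0.00494 and, adjusted over 8056 transcripts, of 0.718. RD thus missed the adjusted threshold, as it did in all 12 alternatives (adjusted p between 0.0908 and 1.00).

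The reads behind these values were few. At a length of 30 bases, the footprints correspond to about 6 and 5 reads in OPCs and 38 and 15 in oligodendrocytes, and the RNA to about 87, 43, 61 and 49 reads. The counts are estimates and carry counting error beside the spread between cultures. Of the 890 bases of the transcript, 81 overlap genes of the opposite strand (68 bases of Mars, which encodes methionyl-tRNA synthetase, and 13 of Gm4189), and 0 of these are in the CDS. No strand option is given for the counting, so RNA reads of Ddit3 and Mars in this stretch could not be told apart, and Mars RNA fell by 0.74 on the log2 scale (limma adjusted p = 0.0192).

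The leader of Ddit3, the stretch before the CDS, is 186 bases long in this model. It holds 2 upstream ATG codons that share 1 stop, and the longer open reading frame of 34 codons ends before the CDS starts. This is the frame known to hold back ribosomes from CHOP. Among 10973 transcripts, 5538 (50.5%) have at least 1 upstream ATG, and the median leader is 169 bases. Among the 6 genes, Asns also has 2 (longest frame 14 codons, leader 169 bases), Atf3 has 1 (25 codons, 252 bases) and Sesn2 has 1 (22 codons, 348 bases). Trib3 and Chac1 have none in leaders of 176 and 174 bases. Footprints were deposited for the CDS, and those of the leaders were not analysed here.

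**Figure D2:**
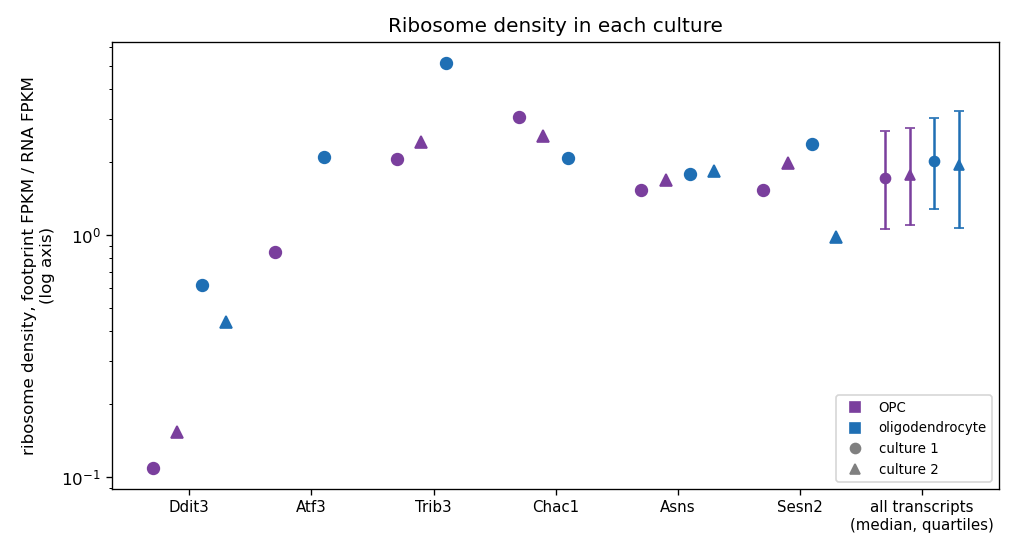
Ribosome density (footprint FPKM over RNA FPKM, log axis) of the 6 genes in each culture. At the right are the median and quartiles of the transcripts tested in RD and above 0 in both kinds. Purple is OPC, blue oligodendrocyte. Ddit3 lies below the lower quartile in all 4 cultures and is nearer to it in oligodendrocytes. Values of 0 (Atf3 in both replicates 2, Chac1 in oligodendrocyte replicate 2) and the undefined value of Trib3 in oligodendrocyte replicate 2 are not drawn.

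Atf3 (ENSMUST00000027941, chr1:191170296-191183340, minus strand, 4 exons, 181 codons) encodes a stress-induced transcription factor of the ATF/CREB family that pairs with JUN and CHOP. Its RNA was 1.11 and 2.46 FPKM in OPCs, against 1.19 and 6.52 FPKM in oligodendrocytes. The groups overlapped, and 1 oligodendrocyte culture stood above the rest. Its value of 0.73 on the log2 scale (SE 0.87, 95% interval -1.42 to 2.89) did not pass (limma adjusted p = 0.546), and without oligodendrocyte replicate 2 it turned to -0.44.

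Footprints of Atf3 were 0.943 FPKM in OPC replicate 1 and 2.50 FPKM in oligodendrocyte replicate 1, and it was listed at 0 in replicate 2 of both. Its mean was under the minimum of 1 FPKM, so it was not tested. In the 2 libraries above 0 it rests on about 4 and 10 reads. Of 410 transcripts within 20% of its footprint level in oligodendrocyte replicate 1, 42.9% were listed at 0 in replicate 2, and for OPCs it was 19.6% of 245. RD was 0.849 in OPC replicate 1 and 2.095 in oligodendrocyte replicate 1.

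Trib3 (ENSMUST00000040312, chr2:152337422-152344032, minus strand, 4 exons, 354 codons) encodes a pseudokinase that is induced by CHOP and ATF4 and inhibits AKT. Its RNA was 2.24 and 0.422 FPKM in OPCs and 0.250 FPKM in oligodendrocyte replicate 1, and it was listed at 0 in replicate 2. RNA was under the minimum and not tested. At about 36, 5, 2 and 0 reads it was near the limit of detection in 3 of 4 libraries, and 57.6% of the 184 transcripts at a like level in oligodendrocyte replicate 1 were listed at 0 in replicate 2.

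Footprints of Trib3 were 4.58 and 1.02 FPKM in OPCs, against 1.29 and 4.31 FPKM in oligodendrocytes. The cultures of 1 group differed more than the group means, which were 2.80 ± 2.52 and 2.80 ± 2.14 FPKM (SD, n = 2 each). On the log2 scale the change of 0.11 had a wide 95% interval of -2.98 to 3.20 (SE 1.13, limma adjusted p = 0.949) and turned to -0.92 without OPC replicate 2 and -0.72 without oligodendrocyte replicate 2. RD was 2.05 and 2.43 in OPCs and 5.15 in oligodendrocyte replicate 1, where it rests on about 2 RNA reads.

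Chac1 (ENSMUST00000028780, chr2:119351229-119354381, plus strand, 3 exons, 223 codons) encodes a gamma-glutamylcyclotransferase that degrades glutathione. Its RNA was 6.99 and 2.09 FPKM in OPCs, against 2.40 and 3.34 FPKM in oligodendrocytes. OPC replicate 1 was the high library and the others were close together. On the log2 scale it changed by -0.43 (SE 0.63, 95% interval -1.97 to 1.12, limma adjusted p = 0.623), and without OPC replicate 1 it turned to 0.42.

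Footprints of Chac1 were 21.5 and 5.36 FPKM in OPCs and 4.97 FPKM in oligodendrocyte replicate 1, and it was listed at 0 in replicate 2. OPC replicate 2 and oligodendrocyte replicate 1 were nearly equal, and the rest of the gap came from the highest and the lowest library. Its footprint log2 fold change of -3.93 (SE 2.18, 95% interval -9.91 to 2.05) did not pass (limma adjusted p = 0.266). Without oligodendrocyte replicate 1, which leaves the library at 0, it was -6.76 with a limma adjusted p of 0.0329. Of 558 transcripts within 20% of its footprint level in oligodendrocyte replicate 1, 30.5% were listed at 0 in replicate 2. RD was 3.07 and 2.56 in OPCs and 2.07 in oligodendrocyte replicate 1. With the library at 0 included, the log2 change of RD was -3.50 (SE 2.53, limma adjusted p = 0.875).

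Trib3 and Chac1 were both higher in OPC replicate 1 than in OPC replicate 2, in RNA and in footprints. Values of Ddit3, Asns and Sesn2 in these libraries lay closer together.

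Asns and Sesn2 had the highest footprint levels of the 6 genes in every culture. Asns (ENSMUST00000031766, chr6:7675169-7693254, minus strand, 12 exons, 561 codons) encodes asparagine synthetase, the ATF4 target that makes asparagine from aspartate and glutamine. Its RNA was 42.3 and 39.8 FPKM in OPCs, against 26.4 and 33.3 FPKM in oligodendrocytes. The means were 41.1 ± 1.76 FPKM in OPCs and 29.8 ± 4.92 FPKM in oligodendrocytes (SD, n = 2 each). The log2 fold change of -0.47 (SE 0.19, 95% interval -0.93 to -0.0046) did not pass after adjustment (limma adjusted p = 0.108), and the median over all transcripts was -0.23.

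Footprints of Asns were 65.0 and 66.8 FPKM in OPCs, against 47.2 and 61.5 FPKM in oligodendrocytes. The log2 fold change was -0.29 (SE 0.18, 95% interval -0.79 to 0.21, limma adjusted p = 0.310). RD was 1.53 and 1.68 in OPCs and 1.79 and 1.84 in oligodendrocytes, and its log2 change was 0.18 (SE 0.26, 95% interval -0.45 to 0.80, limma adjusted p = 0.894). These intervals leave room for a footprint fall of up to 0.79 or a rise of up to 0.21 on the log2 scale.

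Sesn2 (ENSMUST00000030724, chr4:132492032-132510501, minus strand, 10 exons, 480 codons) encodes Sestrin2, a leucine-binding inhibitor of mTORC1. Its RNA was 22.8 and 20.4 FPKM in OPCs, against 12.1 and 17.5 FPKM in oligodendrocytes. The means were 21.6 ± 1.70 FPKM in OPCs and 14.8 ± 3.78 FPKM in oligodendrocytes (SD, n = 2 each). The log2 fold change of -0.57 (SE 0.25, 95% interval -1.17 to 0.041) did not pass (limma adjusted p = 0.130).

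Footprints of Sesn2 were 35.0 and 40.3 FPKM in OPCs, against 28.8 and 17.1 FPKM in oligodendrocytes. Oligodendrocyte replicate 2 was the lowest. The log2 fold change was -0.76 (SE 0.32, 95% interval -1.63 to 0.12, limma adjusted p = 0.173), and without oligodendrocyte replicate 1 it was -1.13 with a limma adjusted p of 0.0357. RD was 1.53 and 1.97 in OPCs and 2.38 and 0.977 in oligodendrocytes, so the oligodendrocyte cultures enclosed those of OPCs. Its log2 change was -0.19 (SE 0.43, 95% interval -1.23 to 0.85, limma adjusted p = 0.934) and turned to 0.45 without oligodendrocyte replicate 2.

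Set side by side as RNA FPKM, which is scaled to length, the order in both OPC cultures was Asns, Sesn2 and Ddit3, followed by Chac1, Atf3 and Trib3, which changed places between cultures. In oligodendrocytes Asns was again the highest, Ddit3 (17.0 and 21.3 FPKM) was above Sesn2 (12.1 and 17.5 FPKM) within each culture although their ranges overlapped, Atf3 and Chac1 overlapped, and Trib3 was the lowest. In footprints Ddit3 was below Sesn2 in all 4 cultures. In OPCs it was also below Chac1 (21.5 and 5.36 FPKM), and in oligodendrocytes above it (4.97 and 0 FPKM).

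**Figure D3:**
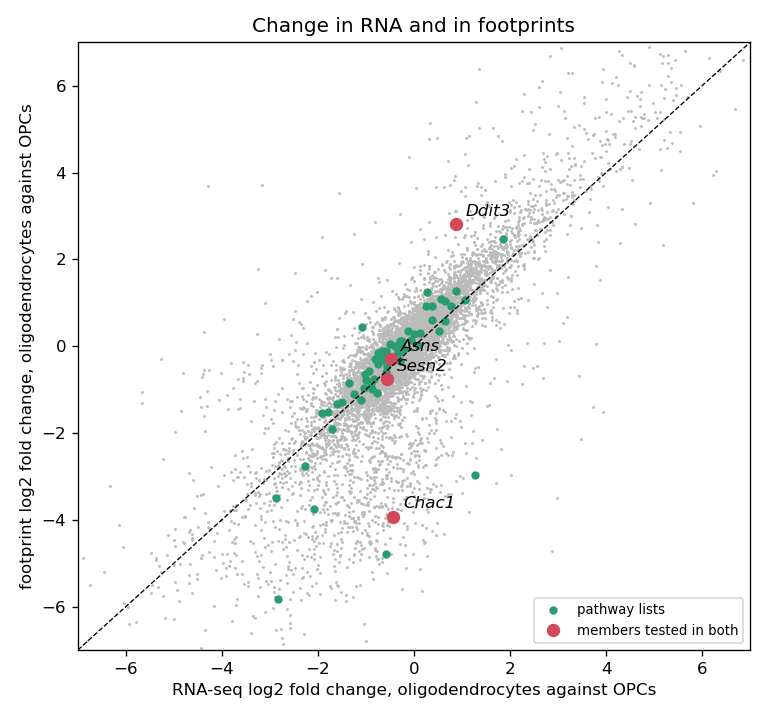
Log2 fold change (oligodendrocytes against OPCs) in RNA-seq (x axis) and in footprints (y axis) of 8056 transcripts tested in both (gray), of which 71 lie beyond the axes; green points are genes of the pathway lists, red points the 4 members tested in both, and the dashed line marks equal change. Ddit3 lies above the line (0.88 and 2.81), Asns and Sesn2 near it, and Chac1 below it (-0.43 and -3.93), with 1 footprint library at 0.

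For Ddit3, Asns, Sesn2 and Chac1, the transcripts with the most similar pattern over the 8 libraries were found. The measure was the Euclidean distance of centred log2 values among 8056 transcripts. Atf3 and Trib3 did not reach the minimum in both kinds of library and were left out. For Ddit3 these were Wbp1, Dmxl2 and Dst at distances of 1.33, 1.42 and 1.46, against a median of 5.48. Dmxl2 had 1.19 and 1.27 footprint FPKM in OPCs, against 5.89 and 5.00 in oligodendrocytes. For Asns, the nearest were Gars, Pmpcb and Mrps18a at 0.193, 0.267 and 0.311 (median 2.14). Gars encodes glycyl-tRNA synthetase and had 141 and 122 RNA FPKM in OPCs, against 85.7 and 102 in oligodendrocytes. For Sesn2 they were Tyw1, Pdcd2l and Bcs1l at 0.469, 0.501 and 0.504 (median 2.25), and for Chac1 Zfp395, Camk2n2 and Rara at 1.28, 1.35 and 1.59 (median 6.19), which like Chac1 were listed at 0 in footprints of oligodendrocyte replicate 2.

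The codon usage differed among the 6 genes. The authors studied tRNAs for phenylalanine and lysine, so the share of UUU among Phe codons and of AAA among Lys codons was computed. UUU was the Phe codon in 0.800 of cases in Atf3, 0.667 in Asns, 0.500 in Trib3 and in Sesn2, 0.250 in Chac1 and 0 in Ddit3, and the median over all transcripts was 0.429. AAA was the Lys codon in 0.500 of cases in Ddit3, Atf3 and Asns, 0.231 in Trib3, 0.0833 in Sesn2 and 0 in Chac1, with a median of 0.368. Ddit3 has 2 Phe codons in all, and both are UUC.

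Around the 6 genes, 10 lists of the pathway held 94 genes, of which 71 were measured. In RNA-seq, 4 of the 67 genes tested rose and 21 fell in oligodendrocytes, or 5.97% and 31.3%, where 13.0% and 20.2% of all transcripts did. In footprints 5 of 68 rose and 9 fell, or 7.35% and 13.2%, where 12.8% and 10.8% of all did. In RD none of 66 passed the limma test. These counts depended on single cultures, as did those over all transcripts. Leaving out a culture leaves 1 library in an arm, so only medians are given for these fits. In RNA, the median log2 fold change of the list genes lay between -0.59 and -0.47, against between -0.30 and -0.14 for all transcripts. In footprints it lay between -0.26 and -0.17, against between -0.31 and 0.075 for all transcripts. Without oligodendrocyte replicate 1, the footprint median of the list genes (-0.17) was above that of all transcripts (-0.31).

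For the counts per list below, the share of all transcripts that passed was 33.2% in RNA and 23.6% in footprints. No list was tested against these shares. Of the eIF2 kinases and their regulators, 1 of 4 tested fell in RNA. This was Eif2ak2, which encodes PKR, the sensor of double-stranded RNA, with 4.27 and 4.38 FPKM in OPCs, against 1.41 and 0.627 FPKM in oligodendrocytes (log2 -2.08, limma adjusted p = 0.0334). Eif2ak3, which encodes the ER kinase PERK, had 12.2 and 12.0 FPKM in OPCs, against 16.1 and 15.3 FPKM in oligodendrocytes, and its log2 fold change of 0.37 did not pass (limma adjusted p = 0.210). Eif2ak4, for the amino acid sensor GCN2, had a value of -0.50 on the log2 scale (limma adjusted p = 0.406). All 6 eIF2 and eIF2B subunits tested had a negative value in RNA, as did 60.0% of all transcripts, and 3 passed, the eIF2 subunits Eif2s1 (-1.03), Eif2s2 (-0.99) and Eif2s3x (-0.64). Eif2s1, whose protein is the phosphorylated subunit, had 43.6 and 58.0 FPKM in OPCs, against 23.4 and 25.7 FPKM in oligodendrocytes, and it also fell in footprints (log2 -0.97). Of 3 phosphatase subunits, Ppp1cb rose (0.87) and Ppp1cc fell (-0.57), both of them catalytic subunits. With median-ratio scaling the RNA calls of Eif2s3x and Ppp1cc were lost (limma adjusted p = 0.111 and 0.106).

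Of the transcription factors, 1 of 3 tested fell in RNA and none of 4 passed in footprints. Cebpb, which encodes C/EBP beta, had 14.9 and 12.4 RNA FPKM in OPCs, against 4.42 and 3.87 FPKM in oligodendrocytes (log2 -1.70, limma adjusted p = 0.00734). Atf4 and Ppp1r15a were not among the 10987 transcripts and could not be analysed here. Ppp1r15a encodes the stress-induced phosphatase subunit GADD34.

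Of the genes of amino acid synthesis and one-carbon metabolism, none rose and 6 of 12 tested fell in RNA, where 13.0% and 20.2% of all transcripts did. With median-ratio scaling 4 of 12 fell, and in that fit 2608 of all 8337 transcripts were called, 1344 of them higher. The largest falls were those of Mthfd2, the mitochondrial folate enzyme (-2.84), Pck2, mitochondrial PEP carboxykinase (-2.27), and Bcat1, the cytosolic branched-chain aminotransferase (-1.92). Mthfd2 RNA went from 42.5 and 34.7 FPKM to 4.48 and 6.22 FPKM. In footprints 2 of 13 fell, Pck2 (-2.76) and Bcat1 (-1.55), while Mthfd2 did not pass with 68.1 and 58.3 FPKM in OPCs, 12.2 FPKM in oligodendrocyte replicate 1 and a listed 0 in replicate 2. Asns differed less, with an RNA value of -0.47.

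Of 7 amino acid transporters, Slc7a11 rose (1.27), while Slc7a5 (-1.50) and Slc7a1 (-1.35) fell in RNA. Slc7a11 is the cystine importer, Slc7a5 carries large neutral and Slc7a1 cationic amino acids. Slc7a11 RNA was 13.5 and 14.1 FPKM in OPCs, against 30.1 and 36.9 FPKM in oligodendrocytes, but its footprints were 5.36, 4.46, 4.01 and 0 FPKM in the same order and did not pass (log2 -2.96, limma adjusted p = 0.340). Slc7a5 was the 1 transporter that fell in footprints (-1.27). Of 9 tRNA synthetases, 1 passed in RNA (Mars, -0.74) and none of 9 passed in footprints with limma. The RNA call of Mars was lost with median-ratio scaling (limma adjusted p = 0.0527).

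Among the other effectors, Vldlr, a lipoprotein receptor (1.85), and Sqstm1, the autophagy receptor p62 (1.07), rose in RNA and also in footprints (2.46 and 1.07). These were 2 of 4 tested in each, where 13.0% and 12.8% of all transcripts rose. Among the paralogs of the 6 genes, 1 of 4 passed in RNA. This was Trib2, with 100 and 103 FPKM in OPCs, against 30.5 and 36.6 FPKM in oligodendrocytes (log2 -1.60), and it fell in footprints too (-1.33). In footprints Sesn3, a paralog of Sesn2 that was named after its values were seen, rose (1.08).

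The ER list covers ER folding and the XBP1 and ATF6 arms, which are other branches of the ER stress response. None of 15 tested rose and 5 fell in RNA, where 13.0% and 20.2% of all transcripts did. With median-ratio scaling 2 of 15 fell, and with limma without the trend 1 of 15 did. Over all transcripts the scaled fit called 2608 of 8337, 1344 of them higher. The fit without the trend called 2075 of 8346, 882 of them higher. The largest falls were Pdia6 (-1.25), a disulfide isomerase, Hsp90b1 (-0.93), the chaperone GRP94, and Manf (-0.90), a secreted ER stress protein. Hspa5, which encodes the chaperone BiP, had 388 and 413 RNA FPKM in OPCs, against 189 and 265 FPKM in oligodendrocytes (log2 -0.84, limma adjusted p = 0.0259). With median-ratio scaling the RNA calls of Hsp90b1 and Hspa5 were lost (limma adjusted p = 0.0543 and 0.0908). Footprints of Hspa5 fell as well (-0.76), as did those of Pdia6 (-1.09) and Manf (-0.85). Those of Sel1l, an ER degradation factor named after its values were seen, rose (0.93). The value of Xbp1, the factor spliced by IRE1, was -0.21 in RNA (limma adjusted p = 0.343).

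**Figure D4:**
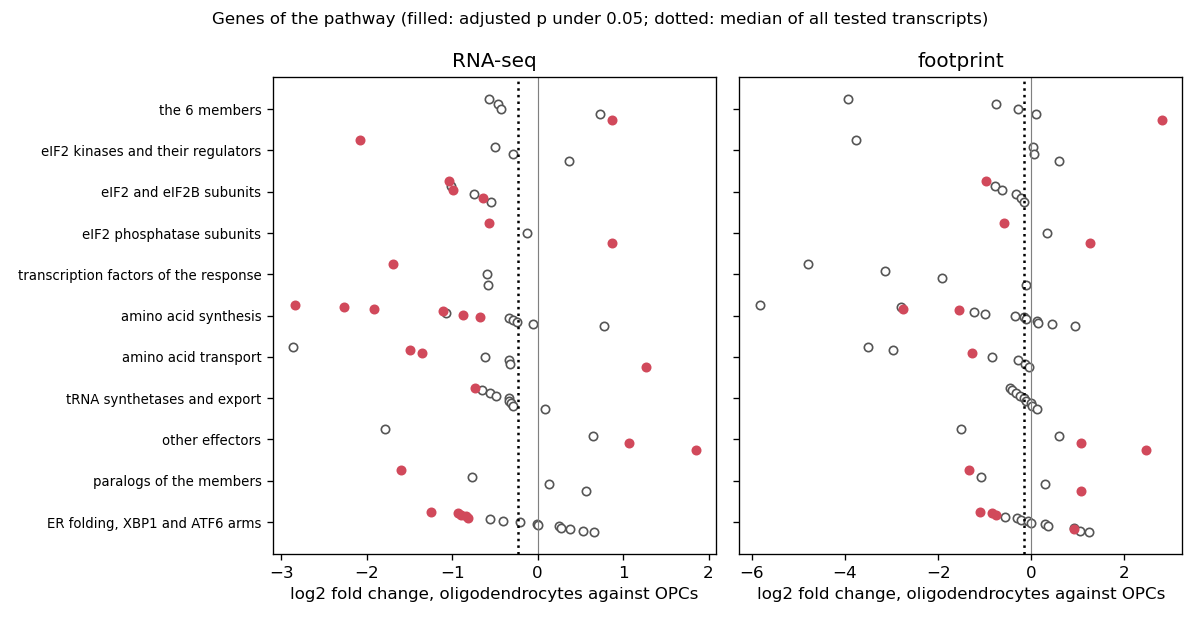
Log2 fold change (oligodendrocytes against OPCs) in RNA-seq (left) and footprints (right) of the 6 genes and of each pathway list, 1 point per gene tested; filled points passed an adjusted p of 0.05, and the dotted line is the median of all transcripts tested (-0.23 and -0.16). Ddit3 is the 1 filled point of the 6 genes, and most filled points of the other lists lie to the left of 0 in RNA-seq.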

How the data were processed

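Libraries were grouped by cell type and kind in their labels, 2 cultures each, and all 8 value columns were used. Per the paper's methods, the authors clipped adapters (reads of at least 18 nt), mapped to GRCm38 with HISAT2 2.1.0 and tabulated FPKM with StringTie 1.3.5 and ballgown. The deposited FPKM refer to the transcript for RNA-seq and to the CDS for footprints, on canonical coding transcripts. They carry no read counts, so depth was estimated from the steps of low values, which can err by a factor of 2, and intervals are those of limma.

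The tests used limma 3.58.1 (R 4.3.3) on log2(FPKM + 0.1), with a trended eBayes and two-sided p-values adjusted by Benjamini-Hochberg over all transcripts whose mean reached 1 FPKM (threshold 0.05). For RD this was the interaction term of a fit over all 8 libraries. Footprints and RNA of the same lysate entered that fit as independent. Their deviations from the group means correlated at 0.220 in OPCs and 0.166 in oligodendrocytes. Log2 fold changes (oligodendrocytes minus OPCs) include the pseudocount of 0.1 and understate those of low genes with all libraries above 0. Where a library is listed at 0, the value depends largely on the pseudocount and can exceed the ratio of group means. Chac1 footprints had a log2 value of -3.93, while the OPC mean was 5.40-fold that of oligodendrocytes. The fits and the depth estimate were tested on simulated data. Oligodendrocytes came from the corresponding OPC cultures per the methods, so same numbers pair cultures; the correlation of deviations from the group means was 0.108 in RNA-seq and 0.0860 in footprints. Coordinates and leaders are from Gencode vM21 (GRCm38), to which all 10987 transcripts matched, and promoters from RefSeq.

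The 6 genes and the lists were chosen with earlier results of these data known. Named list genes are the largest changes past the threshold in RNA-seq, up to 3 each way per list, and Eif2ak3, Eif2ak4, Hspa5 and Xbp1. Alternatives were another pseudocount (1 or 0.01), no minimum or 5 FPKM, median-ratio scaling, limma without trend, the replicate block, RD per culture and leaving out each culture.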

Additional observations from a re-analysis of the deposited data

How the results depend on the processing

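Ddit3 kept its direction in RNA, footprints and RD under all alternatives, but not its calls. The count of the 6 genes that passed in RNA-seq, 1, was 0 with a pseudocount of 0.01, with no minimum and without the trend, and 0 without any single culture. In footprints it was 0 with the replicate block and between 0 and 3 without 1 culture. Over all transcripts the RNA-seq calls went from 2772 to between 364 and 2599 without 1 culture. Footprint calls went from 1969 to 1036 without the trend and to between 0 and 3442 without 1 culture; where limma gave 0 (without either OPC culture), 1936 and 1927 transcripts had an unadjusted p under 0.05. The 1 RD call became 3 with a pseudocount of 0.01 or median-ratio scaling, 14 without the trend, 0 with the replicate block or per culture (the same fit, 539 unadjusted), and between 0 and 883 without 1 culture (249 and 212 unadjusted by limma without OPC replicates 1 and 2, where none passed). The cause was not tested, except that leaving out a culture leaves 1 library in an arm, assumed to vary like the others. Signs turned when 1 culture was left out for Chac1 RNA (range -1.27 to 0.42, positive without OPC replicate 1), Atf3 RNA (-0.44 to 1.91, negative without oligodendrocyte replicate 2), Trib3 footprints (-0.92 to 1.14; -0.92 without OPC replicate 2 and -0.72 without oligodendrocyte replicate 2), Sesn2 RD (-0.83 to 0.45, positive without oligodendrocyte replicate 2), Xbp1 footprints (-0.12 to 0.0061) and Eif2ak4 footprints (-0.17 to 0.26), none of them called. Of the named list genes, 21 passed in RNA and 12 in footprints, none reversed and none passed under every alternative. The replicate block changed no call of the 6 genes other than that of Ddit3 footprints. Median-ratio scaling moved the median of all transcripts in RNA from -0.23 to -0.047 and the share of higher among called transcripts to 51.5%, and the falls among the list genes from 21 to 13. Depth limits Atf3, Trib3 and Chac1, which rest on few reads and are listed at 0 in some libraries.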
